A study of Mus musculus with 6 samples.

Results

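F-box protein and cullin genes encode the interchangeable parts of the cullin-RING ubiquitin ligases, and their transcripts were followed here after microRNAs were returned to cells that cannot make them. The genes were chosen by name: every probe set whose single gene symbol in the array annotation starts with Fbxl, Fbxo, Fbxw or Cul followed by a digit, or is Skp1a, Skp2 or Rbx1. This gave 139 probe sets of 77 genes, out of 45037 probe sets and 18193 named genes on the array. They were 8 cullin genes, Skp2 and Rbx1, and 18 Fbxw, 17 Fbxl and 32 Fbxo genes. The symbol Skp1a was carried by 0 probe sets; the annotation lists the gene under its later symbol, Skp1, so it is given beside the others and not counted among them.

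The cells were an undifferentiated mouse embryonic stem cell line, 27H, labelled Dicer -/-; all 6 samples share this genotype and come from this single line. The control group of 3 samples had received an siRNA against Renilla luciferase, and the mimic group of 3 samples had received synthetic mimics of the mmu-miR-290 cluster. RNA was taken 24 h after transfection and each sample was read on 1 Affymetrix array. The comparison asks how the transcripts differ once microRNAs of this cluster are present.

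In a cullin-RING ligase the cullin is a curved scaffold. Its C-terminal end holds the RING protein Rbx1, which brings in the ubiquitin-charged conjugating enzyme, and its N-terminal end holds an adaptor with a substrate receptor. In the SCF type the scaffold is Cul1, the adaptor is Skp1, and the receptor is an F-box protein that recognises the substrate through WD40 repeats (Fbxw), leucine-rich repeats (Fbxl) or another domain (Fbxo). Ligases of this kind set the lifetime of cyclins, cyclin-dependent kinase inhibitors and signalling proteins, and one F-box gene, Fbxo15, is a long-used marker of undifferentiated mouse embryonic stem cells.

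The microRNAs of the miR-290 cluster are shown because their seed, bases 2 to 8 from the 5′ end, is what pairs with target transcripts. The labels do not say which of them were in the mimic mixture. The 3p arms held in the RefSeq table (build GRCm38.p6, chromosome 7, plus strand) are printed 5′ to 3′ with the seed in capitals.
mmu-miR-291a-3p: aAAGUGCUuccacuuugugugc
mmu-miR-294-3p: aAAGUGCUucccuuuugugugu
mmu-miR-295-3p: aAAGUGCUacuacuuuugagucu
mmu-miR-290a-3p: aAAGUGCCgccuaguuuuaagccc
mmu-miR-291b-3p: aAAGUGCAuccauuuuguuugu
mmu-miR-293-3p: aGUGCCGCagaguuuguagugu
Of these 6 arms, 3 shared the same seed (miR-291a-3p, miR-294-3p and miR-295-3p). The seeds of miR-290a-3p and miR-291b-3p differ from it only in their last base. The 3p arm of miR-292a, whose 5p arm is held there, is not among those printed. Matches of these seeds to the transcripts of F-box and cullin genes were not analysed here.

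The arrays were alike. Median intensities lay between 41.7 and 44.9, and pairs of arrays correlated, on the log2 scale, at 0.963 to 0.969 inside a group and at 0.959 to 0.964 across groups. All 10 listed pluripotency markers were above the filter on low values, with Pou5f1 at 11430 ± 1029 in the control and 12239 ± 386 in the mimic group (SD, n = 3 each), and their summed intensity was 113669 to 122989 on control and 122018 to 128222 on mimic arrays. Of 10 fibroblast markers, 6 were above the filter, 0 passed the test, and their summed intensity was 706 to 788 on control and 571 to 688 on mimic arrays. Col1a1, Col1a2 and Col3a1 stayed at or below 32.2 on every array. Most of the summed fibroblast intensity therefore came from other listed markers, whose values are not given here. Summed markers of endoderm were 175 to 236 against 248 to 304, of mesoderm 370 to 572 against 352 to 388, of neural ectoderm 773 to 943 against 672 to 839.7, and of trophectoderm 241 to 264 against 178 to 269; of these only Sox1, a neural gene, was called lower (log2 fold change −0.95, limma adjusted p = 0.0458). With the level-dependent robust prior (described below) 0 of the endoderm, mesoderm, neural and trophectoderm markers were called, Sox1 included. That prior called 2 of the 10 pluripotency markers higher and 0 lower. Over all tested probe sets, dim ones included, it called 4.73% higher and 6.56% lower, a share not matched to these markers in intensity. Of the 6 tested fibroblast markers it called 1 lower and 0 higher. The part of these markers in the results was not tested. In such bulk samples fewer cells of a type and less RNA per cell cannot be told apart. Whether the replicates are separate cultures is not in the labels; a p-value here therefore reflects the spread among these 6 arrays, which could be technical.

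Only 1 F-box or cullin transcript passed the test, and the differences of most were small. Of the 139 probe sets, 121 had a mean log2 intensity of at least 4 and were tested, covering 67 of the 77 genes. With limma, a linear model that shares variance across all probe sets, and a Benjamini-Hochberg adjusted p under 0.05, 1 rose (Fbxo2) and 0 fell. Over all 29167 tested probe sets 0.343% rose, 0.946% fell and 1.29% passed in either direction. At an unadjusted p under 0.05 in limma, 15 of the 121 were lower (12.4%, background 11.6%) and 8 higher (6.61%, background 8.49%), together 19.0%, against 20.1% of all tested probe sets. These shares lie near the background, and so does the share called.

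The differences were small as well as rarely called. Among the 67 genes, each taken through its probe set of highest mean intensity, 44 differed by less than 0.25 on the log2 scale (65.7%, against 57.1% of all 13815 tested genes), 12 differed by at least 0.5 and 2 by at least 1. The F-box and cullin genes were also more intense than the array as a whole, with a median of 315 against 142 for all named genes. Of their probe sets 87.1% were above the filter, against 64.8% of all. The part of intensity in the small differences was not tested. The median log2 fold change, mimic minus control, was −0.04 over the 121 probe sets and −0.01 over all tested probe sets. By sign, 38 genes were lower and 29 higher.

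**Figure D1:**
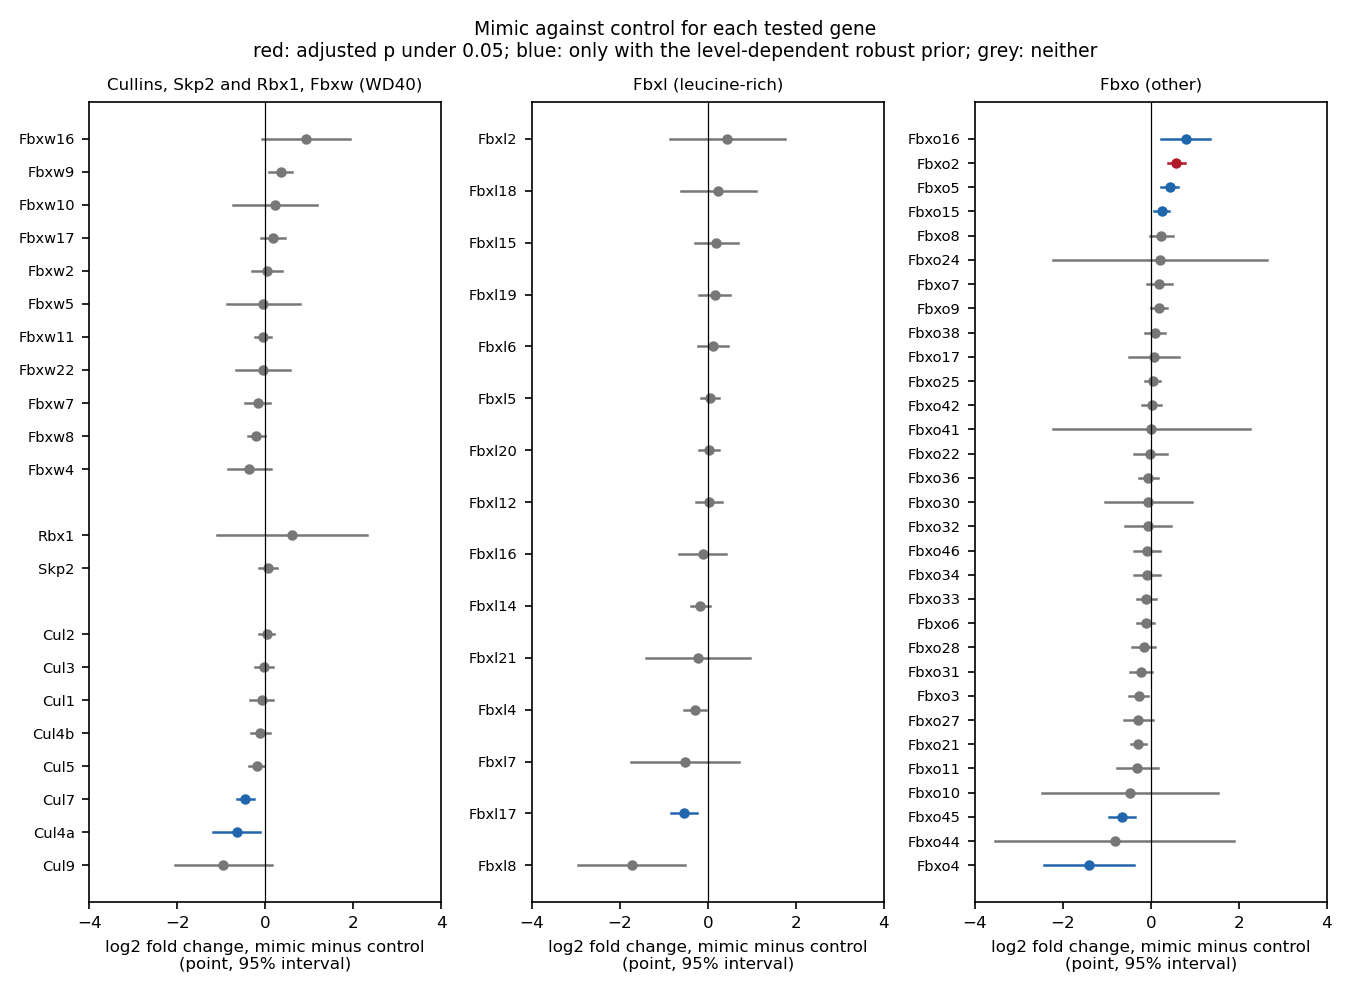
Log2 fold change (mimic minus control) of the 67 tested genes, each through its probe set of highest mean intensity, with the 95% interval from limma on the horizontal axis and genes on the vertical axis, in panels by family. Red marks the gene with an adjusted p under 0.05 (Fbxo2), blue the genes past 0.05 only with the level-dependent robust prior, and grey the rest; most points sit within 0.25 of 0, and the widest intervals belong to dim probe sets.

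The number of calls depended on how limma's prior variance was set. When the prior was fitted robustly as a function of intensity (the level-dependent robust prior), 6 of the 121 probe sets were lower and 7 higher, from 12 genes, together 10.7% of the tested ones. The same setting called 11.3% of all tested probe sets, 6.56% lower and 4.73% higher, so this share too is near the background. The 13 probe sets were those of Cul4a, Cul7, Fbxl17, Fbxo4, Fbxo45 and Fbxw8 (lower) and of Fbxo2, Fbxo5, Fbxo15, Fbxo16, Fbxo28 and Fbxw2 (higher, the last with 2). Of these, Cul7, Fbxl17, Fbxo5, Fbxo15 and Fbxo45 kept this call whichever of the 6 arrays was left out; over all alternatives their adjusted p ran from 0.000879 (Cul7) to 0.378 (Fbxo15). With only probe sets of mean log2 intensity of at least 6 tested, 5 were lower and 5 higher at an adjusted p under 0.05 in limma. Of these 10, 9 were among the 13. The number tested under that filter is not given here, so these counts have no background share. They are not read as a result about these genes.

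For 37 of the 121 probe sets the 3 values of one group lay beyond the 3 of the other, 30.6%, against 29.2% of all tested probe sets. The mimic values were the lower ones for 25 (20.7%, background 15.5%) and the higher ones for 12 (9.92%, background 13.8%).

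**Figure D2:**
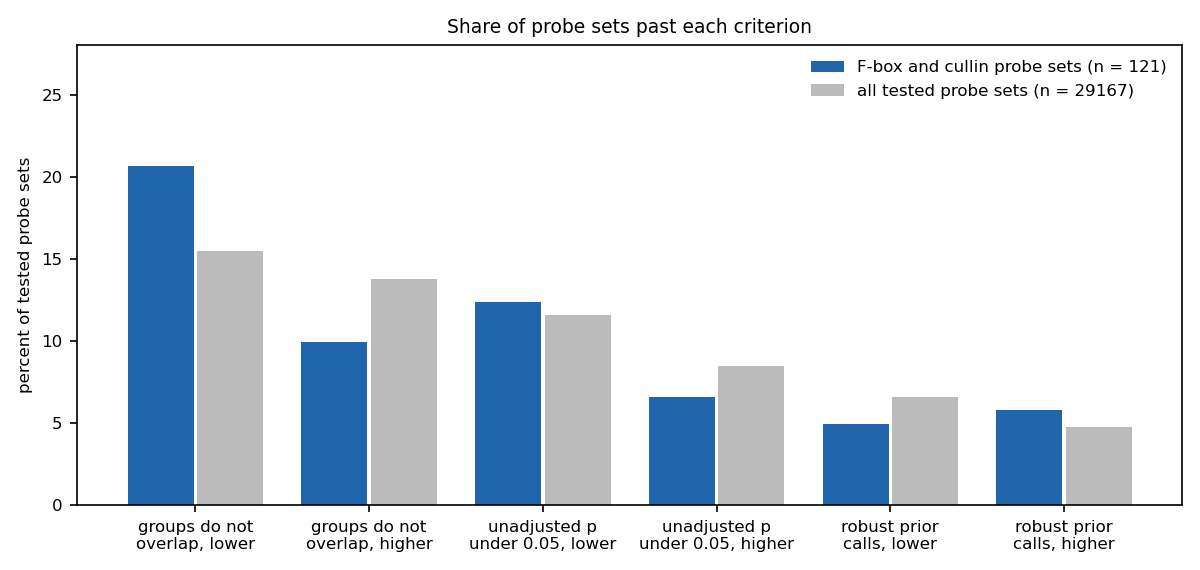
Percent of tested probe sets past each criterion, for the 121 F-box and cullin probe sets (blue) and for all 29167 tested probe sets (grey). The blue bars stand close to the grey ones, above them for groups that do not overlap and are lower (20.7% against 15.5%) and below them for those that are higher (9.92% against 13.8%).

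Fbxo2 encodes an F-box protein that binds high-mannose glycans and directs misfolded glycoproteins to degradation. Its intensities were 195, 187 and 178 on the control arrays and 281, 268 and 289 on the mimic arrays. Every mimic value lay above every control value, and the gap between the groups was wider than the spread within either. The mimic group was higher by 49.6% (log2 fold change 0.58 ± 0.076 SE, 95% interval 0.39 to 0.77, limma adjusted p = 0.0457, from 0.0095 to 0.208 over the alternatives). The call ended with median centring of the arrays (limma adjusted p = 0.0533), with no filter on low values (0.169) and without any 1 of the 6 arrays (0.133 to 0.154), while the log2 fold change stayed between 0.55 and 0.64 over the other settings and was 0.54 with an offset of 16. With the level-dependent robust prior it passed at 0.0136, and lost that call without control replicate 3 (0.0506) or mimic replicate 1 (0.0517).

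In the gene order of RefSeq, Fbxo2 stands in a row with Fbxo44 and Fbxo6, whose products share its glycan-binding type of domain. Fbxo6 measured 2196, 2240 and 2226 in the control and 2126, 2121 and 1913 in the mimic group, a log2 fold change of −0.11 (limma adjusted p = 0.464), and a dim second probe set gave 0.34. Fbxo44 was near the floor, between 3.28 and 48.3 on its tested probe set, where a fold is uncertain (−0.82, 95% interval −3.55 to 1.90). Neither neighbour was called.

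Fbxo15, the stem cell marker, measured 13587, 14041 and 13358 in the control and 16113, 16285 and 16248 in the mimic group. The mimic values all lay higher, by 1.19-fold (log2 fold change 0.25 ± 0.066 SE, limma adjusted p = 0.129; 0.00267 with the level-dependent robust prior). The summed pluripotency markers given above were 113669 to 122989 on control arrays and 122018 to 128222 on mimic arrays, and their part in this value was not tested.

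Fbxo5 encodes Emi1, the inhibitor that keeps the anaphase-promoting complex silent before mitosis. The control arrays read 1656, 1673 and 1548, and the mimic arrays 2180, 2109 and 2285. The groups did not overlap and the mimic group was 1.35-fold higher (log2 fold change 0.43 ± 0.076 SE, limma adjusted p = 0.0688; 0.00143 with the level-dependent robust prior). Fbxo16 measured 114, 111 and 75.5 against 206, 144 and 169 (log2 fold change 0.80 ± 0.22 SE, limma adjusted p = 0.141; 0.0372 with the level-dependent robust prior, a call kept without control replicate 2 or mimic replicate 2 and lost without any of the other 4 arrays).

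On the lower side, Fbxo45 encodes an unusual F-box protein that works with the ligase Mycbp2 in neural development rather than with Cul1. Its probe set of higher intensity measured 465, 529 and 573 in the control and 339, 353 and 301 in the mimic group. The mimic values were all lower, by 1.57-fold (−0.65 ± 0.12 SE on the log2 scale, limma adjusted p = 0.0692; 0.00409 with the level-dependent robust prior). A second Fbxo45 probe set disagreed, at 256, 260 and 237 against 268, 232 and 313 (0.10, limma adjusted p = 0.703).

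Fbxo4, which has been linked to the turnover of cyclin D1, gave one of the 2 largest differences among the genes, at low intensity. Its values were 78.6, 104 and 115 in the control and 20.5, 46.2 and 53.9 in the mimic group, a log2 fold change of −1.40 ± 0.41 SE (limma adjusted p = 0.151; 0.031 with the level-dependent robust prior, a call kept only without mimic replicate 2 or mimic replicate 3). After 16 was added to all intensities the log2 fold change was −1.08. A second probe set was below the filter.

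Fbxo21, another member of the Fbxo family, was at 624 ± 11.2 in the control and 514 ± 12.2 in the mimic group (SD, n = 3 each). These groups did not overlap (−0.28 ± 0.066 SE on the log2 scale, limma adjusted p = 0.107). Its second probe set gave −0.14. Fbxo22, which targets histone demethylases among others, was at 5781 ± 905 and 5698 ± 495 (SD, n = 3 each; log2 fold change −0.01, 95% interval −0.39 to 0.36). Control replicate 2 read 4744 where the other controls read 6409 and 6191. Fbxo3 had 5 tested probe sets, all lower by sign (−0.28 to −0.04). The most intense measured 767, 772 and 828 against 673, 686 and 597 (−0.28 ± 0.089 SE, limma adjusted p = 0.176), and on 3 of the 5 the groups did not overlap.

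Fbxo28 had 3 probe sets that pointed in different directions. The one of highest intensity gave −0.16, the next 0.34 and the dimmest −0.30, with limma adjusted p-values of 0.458, 0.201 and 0.301. The call of the middle one with the level-dependent robust prior (0.0421) was kept only without control replicate 2. Of 53 tested Fbxo probe sets as a whole, 32 were lower and 21 higher by sign, with a median log2 fold change of −0.06.

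**Figure D3:**
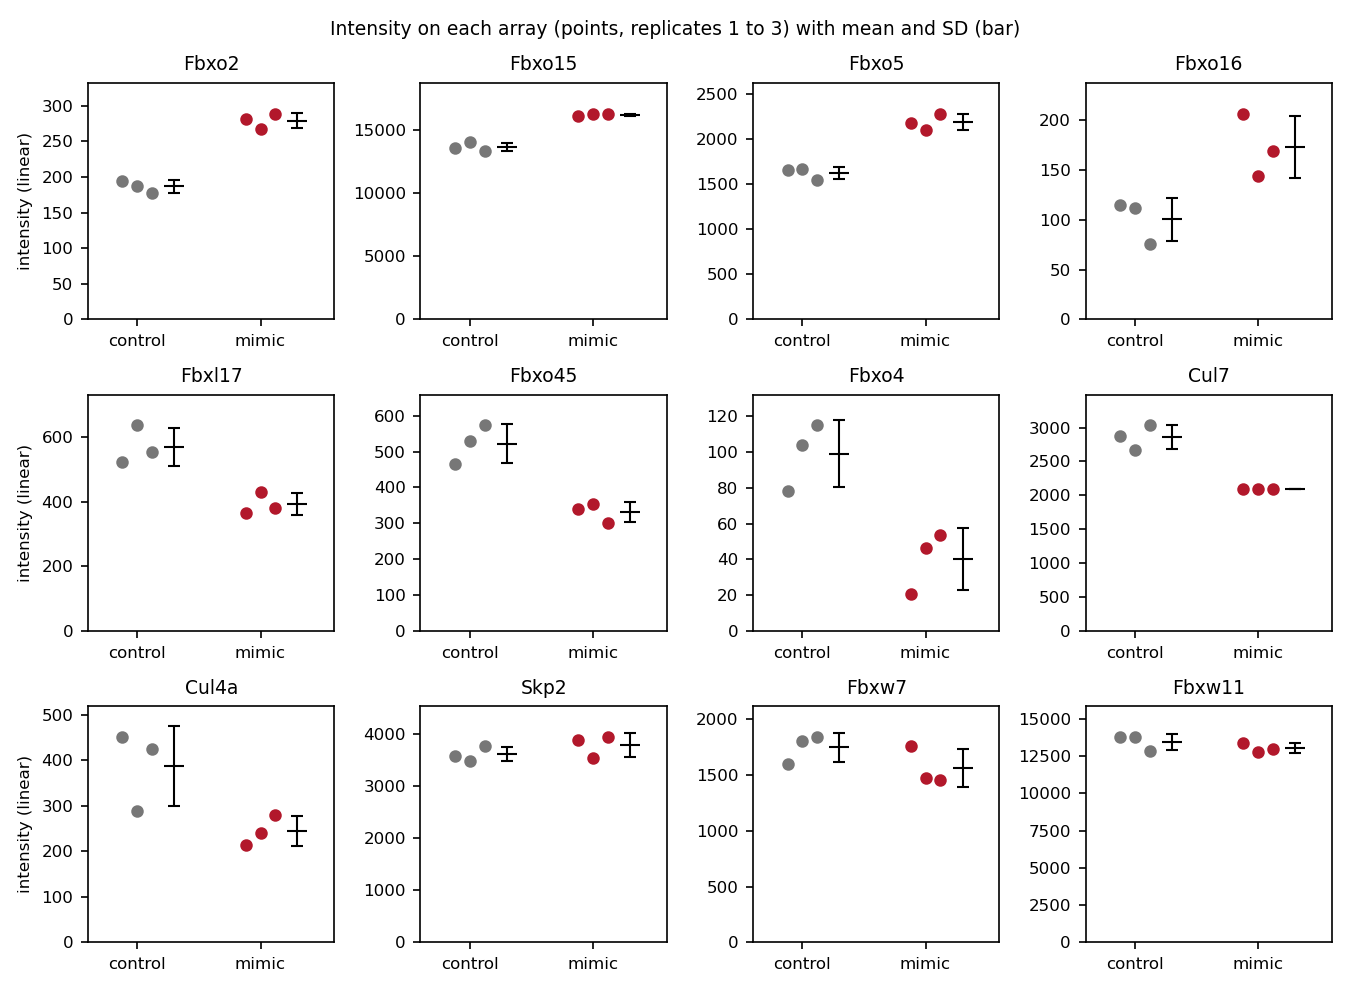
Linear intensity on each array (points, replicates 1 to 3 from left to right) in the control (grey) and mimic (red) groups for 12 genes, with the mean and SD as a black bar; each vertical axis starts at 0. Fbxo2, Fbxo15, Fbxo5 and Fbxo16 have all mimic values above the control ones, Fbxl17, Fbxo45, Fbxo4, Cul7 and Cul4a have them all below, and Skp2, Fbxw7 and Fbxw11 overlap.

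Most cullin probe sets were lower by sign, and none of the 16 passed. Of 16 tested cullin probe sets, 14 were lower by sign, as were 50.7% of all tested probe sets. All mimic values lay below all control values for 7 (43.8%, background 15.5%) and above them for 0 (background 13.8%). At an adjusted p under 0.05 in limma 0 passed, and at an unadjusted p under 0.05 in limma 4 were lower and 0 higher. The 7 came from Cul3 (2), Cul4a, Cul4b, Cul5, Cul7 and Cul9. Several probe sets of one gene report on the same transcript, so they are not separate observations.

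Cul7 forms a ligase with the F-box protein Fbxw8 and is needed for placental growth. It measured 2883, 2675 and 3033 in the control and 2091, 2093 and 2086 in the mimic group. The 3 mimic values were close to each other (SD 3.43) and all below the control values, a 1.37-fold difference (log2 fold change −0.45 ± 0.078 SE, limma adjusted p = 0.0669; 0.000879 with the level-dependent robust prior).

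Its partner Fbxw8 was lower by sign on all 3 of its probe sets. The most intense one measured 923, 880.2 and 896 against 733, 818 and 792 (log2 fold change −0.21 ± 0.077 SE, limma adjusted p = 0.229). The second measured 935, 951 and 848 against 720, 632 and 735 (−0.39 ± 0.097 SE, limma adjusted p = 0.116; 0.0158 with the level-dependent robust prior, lost without control replicate 1 or mimic replicate 2). On both of these probe sets the groups did not overlap; the third, a dim one, gave −0.75 with overlapping groups.

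Cul4a and Cul4b are close relatives that use Ddb1 as adaptor. Cul4a measured 452, 288 and 424 in the control and 214, 239.6 and 279 in the mimic group. The groups did not overlap, but control replicate 2 lay close to the mimic values (log2 fold change −0.65 ± 0.21 SE, limma adjusted p = 0.18; 0.0334 with the level-dependent robust prior, kept only without control replicate 2 or mimic replicate 3). Cul4b was at 6823 ± 459 and 6341 ± 349 (SD, n = 3 each; −0.11, 95% interval −0.33 to 0.12), and its second probe set, at 4588 ± 31.7 and 4385 ± 69.1, did not overlap between the groups (−0.07).

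On their most intense probe sets Cul1, Cul2 and Cul3 differed little. Cul1, the scaffold of the SCF ligases, measured 2994, 3125 and 3227 against 2755, 2801 and 3320, with mimic replicate 3 above all control values (log2 fold change −0.08, 95% interval −0.34 to 0.18). Cul2, which carries the von Hippel-Lindau receptor, was at 2128 ± 67.3 and 2180 ± 50.5 (SD, n = 3 each; 0.03, 95% interval −0.14 to 0.21). Cul3, the scaffold for BTB-domain receptors, was at 4382 ± 289 and 4297 ± 85.4 on its most intense probe set (−0.03). Its 4 further probe sets gave −0.10 to −0.32 and did not pass. The dimmest measured 475, 469 and 473 against 343, 390 and 405, without overlap (−0.32, limma adjusted p = 0.14). Another, at −0.17, did not overlap between the groups either.

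Cul5, which pairs with SOCS-box receptors, measured 683, 703 and 709 in the control and 616, 601 and 617 in the mimic group (log2 fold change −0.19 ± 0.065 SE, limma adjusted p = 0.195). Its other 2 probe sets gave 0.24 and 0.00 and did not separate the groups. Cul9, a cytoplasmic binding partner of p53, was near the floor at 27.8 to 33.0 in the control and 8.19 to 26.3 in the mimic group, where a fold is uncertain (−0.95, limma adjusted p = 0.309). The signed values of the cullins hold under the scaling as deposited; median centring shifts all differences by 0.05 towards higher, and the median over the tested F-box and cullin probe sets then becomes 0.0017.

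Neither Skp1 nor Skp2 passed the test. Skp1, the adaptor shared by SCF ligases, measured 16602, 17414 and 16850 in the control and 17858, 16772 and 16851 in the mimic group, overlapping throughout (log2 fold change 0.02, 95% interval −0.16 to 0.19, limma adjusted p = 0.916), and a second probe set gave 0.09. Skp2 is the receptor that marks the kinase inhibitor p27 for degradation. It measured 3583, 3490 and 3771 against 3888, 3530 and 3944 on its most intense probe set (0.07, 95% interval −0.14 to 0.27, limma adjusted p = 0.692). Its 6 probe sets ranged from −0.06 to 0.20, and on 1 of them all mimic values lay above the control ones. Rbx1 was measured only by a probe set near the floor, between 8.32 and 41.0 over the 6 arrays, so its response could not be measured here (log2 fold change 0.61, 95% interval −1.09 to 2.32). A further 5 probe sets carry Rbx1 together with a pseudogene and are not used here for that reason.

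The groups overlapped on the most intense probe sets of Fbxw7 and Fbxw11. Fbxw7 targets cyclin E, Myc, Jun and Notch. It measured 1603, 1805 and 1844 in the control and 1761, 1474 and 1456 in the mimic group (log2 fold change −0.17, 95% interval −0.45 to 0.12, limma adjusted p = 0.473), and its second probe set gave 0.06. Fbxw11, a beta-TrCP that recognises beta-catenin and the NF-kappaB inhibitor, measured 13753, 13781 and 12824 against 13390, 12741 and 12950 (−0.05, 95% interval −0.23 to 0.14). That probe set is of a type whose probes can match other transcripts; the next most intense one gave −0.14. Btrc, the other beta-TrCP, lies outside the naming rule and measured 549.96, 561 and 495 against 730.2, 728 and 586. Its mimic values were all higher, but it did not pass (0.34 ± 0.12 SE on the log2 scale, limma adjusted p = 0.21; 0.0643 with the level-dependent robust prior).

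Fbxw2 had 6 tested probe sets. The most intense gave 0.04, with values of 494, 421 and 583 against 525, 491 and 505. The next 2 measured 425, 461 and 432 against 541, 620.0 and 530.0, and 423, 392 and 418 against 509, 522 and 523. Both had all mimic values above the control ones, with log2 fold changes of 0.36 and 0.34 (limma adjusted p = 0.127 and 0.0866). They passed with the level-dependent robust prior (0.0408 and 0.0406) on all 6 arrays and not once any array was left out. A dimmer probe set also had all mimic values above the control ones (0.17, limma adjusted p = 0.323). The remaining tested ones, dimmer still, had overlapping groups and gave 0.21 and −0.04. For the most intense probe set the interval from limma ran from −0.31 to 0.38. That range takes in the values of the next 2, so the most intense probe set does not contradict them.

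Fbxw9, a less studied member, measured 479, 444 and 407 in the control and 518, 565 and 614 in the mimic group, without overlap (log2 fold change 0.35 ± 0.11 SE, limma adjusted p = 0.159). Fbxw17, at 0.18, and Fbxw4, the gene altered in a mouse limb malformation, at −0.36, had overlapping groups and limma adjusted p-values of 0.417 and 0.374. Over the 25 tested Fbxw probe sets, 11 were lower and 14 higher by sign, with a median of 0.06.

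**Figure D4:**
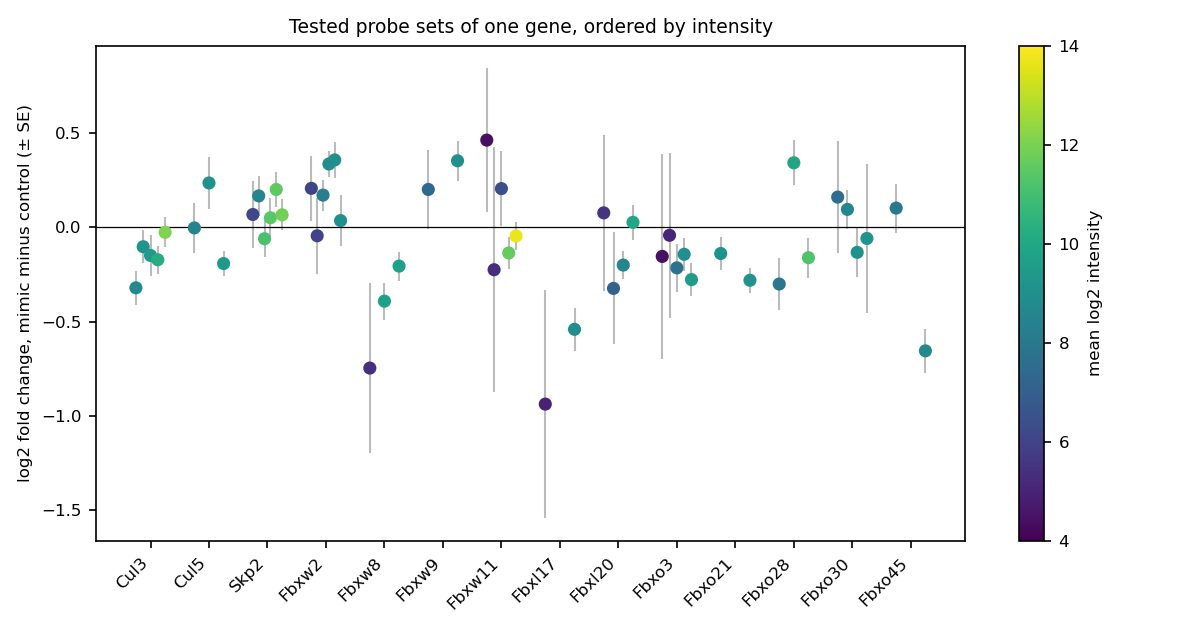
Log2 fold change (mimic minus control, ± SE, vertical axis) of each tested probe set of 14 genes, from the dimmest at the left to the most intense at the right within a gene, coloured by mean log2 intensity. Cul3, Fbxw8, Fbxl17, Fbxo3 and Fbxo21 have all tested probe sets below 0, and Fbxw9 has them above. The other genes have probe sets on both sides of 0.

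Most genes of a row of Fbxw genes were below the filter. Fbxw13, Fbxw14, Fbxw16, Fbxw18, Fbxw19, Fbxw21, Fbxw22, Fbxw24 and Fbxw27 follow each other on one chromosome in the RefSeq gene order, with at most 3 steps between neighbouring members counted in protein-coding genes. Of these 9 genes, 7 were below the filter and make up all Fbxw genes that were not tested. The other two, Fbxw22 and Fbxw16, had overlapping groups. Fbxw22 measured 159, 102 and 134 in the control and 95.6, 146 and 138 in the mimic group (log2 fold change −0.06, limma adjusted p = 0.92). Fbxw16 measured 26.5, 18.2 and 47.1 against 61.9, 40.7 and 61.9 (log2 fold change 0.92, limma adjusted p = 0.278). These genes are close copies of each other, so a probe set may also pick up a neighbour.

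Of the leucine-rich receptors, Fbxl17, which removes wrongly paired BTB-domain proteins, was the most separated. It measured 522, 636 and 553 in the control and 364, 430.2 and 381 in the mimic group. All mimic values were lower, by 1.45-fold (log2 fold change −0.54 ± 0.12 SE, limma adjusted p = 0.0878; 0.00926 with the level-dependent robust prior). A dim second probe set gave −0.94 with overlapping groups.

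Fbxl4, a protein of mitochondrial maintenance, measured 244, 222 and 259 against 183, 194 and 215 (log2 fold change −0.29 ± 0.10 SE, limma adjusted p = 0.203). Fbxl14, which acts on the transcription factor Snail, measured 998, 1140 and 1045 against 906, 980.4 and 931 (−0.17 ± 0.085 SE, limma adjusted p = 0.33). In both genes the groups did not overlap but the difference did not pass. Fbxl8 had the largest difference by size, −1.73 ± 0.48 SE (limma adjusted p = 0.14), but its values were 24.3, 46.3 and 30.3 against 18.9, 6.99 and 7.01, near the floor, and with the offset of 16 the log2 fold change was −0.89.

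On the most intense probe sets of Fbxl5, Fbxl20 and Fbxl19 the groups overlapped. Fbxl5, the iron-sensing receptor of the iron regulatory protein, measured 722, 723 and 687 against 695, 731 and 788 (log2 fold change 0.05, 95% interval −0.15 to 0.26). Fbxl20, at 995 ± 63.5 and 1014 ± 68.9 (SD, n = 3 each), and Fbxl19, a protein that binds CpG islands, at 435 ± 62.7 and 484 ± 45.8, gave 0.03 and 0.16. A second Fbxl20 probe set measured 396, 415 and 431 against 349, 359 and 373, without overlap (−0.20 ± 0.074 SE on the log2 scale, limma adjusted p = 0.223). A dim probe set of Fbxl7 was also lower without overlap (−1.49, limma adjusted p = 0.325), while the most intense one of that gene overlapped. Of the 20 tested Fbxl probe sets 6 had all mimic values below the control ones (30.0%, background 15.5%) and 0 above (background 13.8%). At an adjusted p under 0.05 in limma 0 of these passed. At an unadjusted p under 0.05 in limma 4 were lower (20.0%, background 11.6%) and 0 higher (background 8.49%).

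Some genes were not above the filter on low values. Fbxo43, the meiotic relative of Fbxo5, lay between 1.80 and 22.6 on the 6 arrays and Fbxl13 between 0.844 and 19.4. Fbxo32, the muscle-wasting ligase gene atrogin-1, was above the filter and measured 53.3, 40.5 and 47.8 against 37.9, 40.7 and 58.6 on its most intense probe set, with overlapping groups. Together 10 of the 77 genes had no probe set above the filter: these were Fbxl12os, a transcript from the strand opposite Fbxl12, Fbxl13, Fbxo43 and 7 Fbxw genes.

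Other genes of the pathway were read from lists, each gene through its probe set of highest mean intensity. Of 6 F-box genes with other symbols, 0 passed, and Kdm2b was at 4634 ± 283 and 5042 ± 415 (SD, n = 3 each) and Zc3hc1 at 2223 ± 103 and 2565 ± 144. NEDD8 is the small modifier that activates cullins. Of 14 genes of its cycle 0 passed, and the level-dependent robust prior called 3 higher and 0 lower. Over all tested probe sets that prior called 4.73% higher and 6.56% lower, the background for its counts in this and the following lists. This background, like that of limma, takes in every tested probe set of a gene, dim ones included. The lists take only the most intense probe set of each gene, so the shares are not matched. The list counts are therefore not read as a result about a list. Nedd8 itself measured 6659, 6737 and 6913 in the control and 8067, 8120.1 and 7944 in the mimic group, without overlap (0.25 ± 0.065 SE on the log2 scale, limma adjusted p = 0.126; 0.00443 with the level-dependent robust prior). Rnf7, the RING partner of Cul5, was at 5171 ± 119 and 5900.3 ± 351 (0.19). The COP9 signalosome removes NEDD8 again; of 9 subunits 0 passed with either prior, and Cops5, its catalytic subunit, and Cops3 gave 0.08 and 0.01.

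Receptors and adaptors outside the F-box family held 1 gene that fell among 42 (background 0.946% lower). Kbtbd2, a BTB-domain receptor of Cul3, measured 2594, 2708 and 2649 in the control and 1458, 1517 and 1445 in the mimic group. The groups were far apart relative to their spread, 1.80-fold (log2 fold change −0.85 ± 0.067 SE, limma adjusted p = 0.0281). Over the alternatives its limma adjusted p rose to as much as 0.208, and its call with the level-dependent robust prior was kept without any 1 array. The median of this list was −0.12, against −0.01 over all genes tested, and the level-dependent robust prior called 13 lower and 2 higher (background 6.56% and 4.73%). As the lists were chosen with earlier results of these data known, these values are not evidence about adaptors as a group. The elongin genes Eloc and Elob, which link Cul2 and Cul5 to their receptors, gave 0.02 and 0.15 and did not pass; with the level-dependent robust prior Elob had an adjusted p of 0.0492, a call kept in 1 of the 6 fits that left out an array.

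Of 10 conjugating enzymes and co-ligases, 0 passed, with a median of 0.04, and the level-dependent robust prior called 4 higher and 0 lower (background 4.73% and 6.56%). Cks1b, the cofactor of Skp2, was at 17857 ± 440 and 20457 ± 309 (SD, n = 3 each; log2 fold change 0.20, limma adjusted p = 0.192; 0.00823 with the level-dependent robust prior, kept without any 1 array) and Ube2d3 at 17149 ± 1199 and 19495 ± 502 (0.19, limma adjusted p = 0.293; 0.039 with that prior, kept in 1 of the 6 fits that left out an array). The others called with it were Cdc34 (0.18) and Arih2 (0.27).

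Of 16 genes of the anaphase-promoting complex, the target of Emi1, 0 passed, with a median of 0.05, and the level-dependent robust prior called 2 lower and 4 higher (background 6.56% and 4.73%). Cdc20, its activator, and Anapc10, the members of highest intensity, gave −0.06 and 0.11. Its subunit Cdc26 measured 1572, 1583 and 1465 against 2094, 2202 and 2059, and Anapc15 2902, 2790.5 and 2847 against 3720, 3776 and 3867, both with all mimic values higher (0.46 and 0.41 on the log2 scale, limma adjusted p = 0.0615 and 0.0609). Anapc7 measured 1846, 1864 and 1938 against 1442, 1463 and 1440.4, with all mimic values lower (−0.38, limma adjusted p = 0.0677). These 3 kept their call with the robust prior without any 1 array, whereas Anapc11 (0.22), Anapc16 (0.23) and Cdc27 (−0.40) lost it in some of those fits.

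Transcripts of known substrates of these ligases held 5 of the 6 calls among these lists. Of 38 tested, 5 fell and 0 rose (background 0.946% lower and 0.343% higher), with a median of −0.16; the level-dependent robust prior called 14 lower and 5 higher (background 6.56% and 4.73%). The 5 that fell were Rbl2 (p130, −1.93), Jun (−0.89), Rhob, a small GTPase (−0.86), Cdkn1a (p21, −0.85) and Nfe2l2, the factor that Keap1 and Cul3 degrade (−0.51), with limma adjusted p-values of 0.0287 to 0.0453. Over the alternatives the limma adjusted p of each rose to as much as 0.208, so these calls too depended on the setting. With the level-dependent robust prior each kept its call without any 1 of the 6 arrays. Rbl2 and Cdkn1a were already known to fall in these samples and are reported targets of this microRNA family, so their direction is not independent evidence. The list was drawn up with earlier results of these data known. Its counts and median are therefore not evidence about substrates as a group. Jun measured 373, 359.6 and 371 against 199.9, 217 and 183, and a second Jun probe set fell by 1.29 on the log2 scale.

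**Figure D5:**
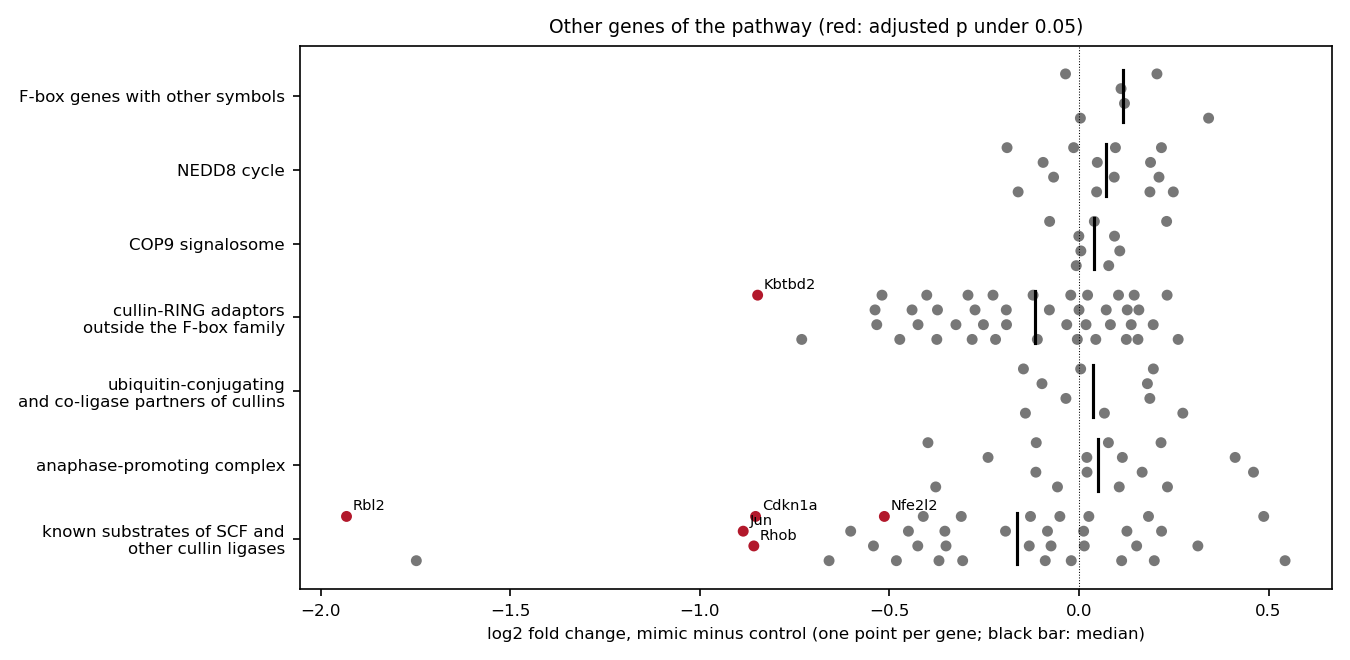
Log2 fold change (mimic minus control, horizontal axis) of the tested genes of 7 further lists, 1 point per gene spread vertically for legibility, with the median of each list as a black bar. Red points passed at an adjusted p under 0.05: Kbtbd2 among the adaptors, and Rbl2, Jun, Rhob, Cdkn1a and Nfe2l2 among the substrates.

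The arrays offer no check of the Dicer genotype. The more intense Dicer1 probe set measured 1129, 1177 and 1137 in the control and 1026, 1143 and 1090.4 in the mimic group (limma adjusted p = 0.6). Both groups are Dicer -/-, and whether these probes fall within the lost sequence is not given in the sources used here.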

How the data were processed

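From total RNA of 6 samples, cRNA was made by in vitro transcription and read on Affymetrix arrays, per the labels. The deposited table gives the intensity of each probe set on each array on a linear scale, from 0.057 to 46765. GCRMA is named in the submitters' processing notes, but GCRMA usually returns log2 values, and here every array has the same mean once the lowest and highest 2% are left out, as global scaling gives. Which software made the values is not settled. Detection calls were not used here, so a low value may be background. Intensities of different probe sets also depend on their probes. They were used to rank genes for naming, to pick 1 probe set per gene and to call probe sets dim. They were also used to set the median of these genes beside that of the array, but not as relative transcript levels.

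Values were log2-transformed without an offset and not normalized again. The 64 control probe sets and 15870 with a mean log2 under 4 were left out. The test of the 29167 others was 2-sided, without covariates, by lmFit and eBayes (limma 3.58.1, R 4.3.3), with Benjamini-Hochberg adjustment over all of them and 0.05 as the threshold; the test was tested on simulated data. Log2 fold changes are mimic minus control means of log2 values; means ± SD are of linear intensities.

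Genes were named through the platform annotation, where 34958 probe sets have 1 symbol and 932 several; the latter and unlisted ones were not named. By gene identifier, 76 of the 77 genes matched a protein-coding gene of RefSeq's annotation of GRCm38.p6, used only for gene order; microRNA sequences are from RefSeq. The text names all cullins, Skp2 and Rbx1, each gene past the threshold, and per F-box family the 3 genes of highest intensity and the 5 of smallest p; for lists, up to 4 called members or, with fewer than 2, the 2 of highest intensity, and Dicer1. Other genes (Nfe2l2, Elob, Btrc, Cdc26 and other pathway genes among them) and probe sets were named after their values were seen. The genes, lists and tests were chosen with earlier results of these data known.

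Alternatives were an offset of 16, median centring, quantile normalization, other filters, the level-dependent robust prior (eBayes with trend and robust estimation), a replicate block, each array left out, and averaging the probe sets of a gene.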

Additional observations from a re-analysis of the deposited data

How the results depend on the processing

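The 1 higher and 0 lower F-box and cullin probe sets became 5 higher and 5 lower with the filter at a mean log2 of 6, and 7 higher and 6 lower with the level-dependent robust prior. They became 0 higher with median centring, with no filter and with the replicate block, and 0 higher without any 1 array; the lower count stayed at 0 in these. With an offset of 16 and with quantile normalization both counts stayed the same. With the robust prior and 1 array left out, 3 to 6 were lower and 2 to 5 higher; the higher count was 2 without control replicate 3 and without mimic replicate 1.

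Over all probe sets, 276 were lower and 100 higher; these were 442 and 186 with the offset of 16, 103 and 50 with median centring, 0 and 0 with no filter, 1522 and 851 with the filter at 6, 1914 and 1379 with the robust prior, and 0 and 0 with the replicate block. Without 1 array they were 0 lower and 0 to 1 higher, and with the robust prior 1186 to 1600 lower and 730 to 1244 higher. The median log2 fold change of the F-box and cullin probe sets, −0.04, was 0.0017 with median centring and −0.0247 with quantile normalization, and −0.0086 to −0.082 without 1 array. The cause of these shifts was not tested.

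Of 616 log2 fold changes of the 31 named genes under the alternatives, 539 kept their sign and their side of the threshold, 46 newly passed, 11 (all of Fbxo2) no longer passed, 20 changed sign without passing in either setting and 0 reversed a call. The replicate block gave 0 calls. Deviations of same-numbered samples from their group means were nearly uncorrelated (−0.0061, 0.012 and 0.024). The labels give these samples a shared number and do not say whether they share anything else. With 3 arrays a group the test misses small changes, and signal was not separated from background.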
